A study of Mus musculus with 18 samples.

Results

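Genes that build the loops and the mitotic fold of chromosomes were followed by RNA-seq as Hmga2 wt and KO cells left the naive state: Smc1a, Smc3, Rad21, Stag1, Stag2, Nipbl and Wapl of the cohesin system, Ctcf, and the condensin genes Smc2 and Smc4. They are 10 of the 45706 genes counted and were taken by name, with earlier results of these data known. Of these, 9 carried these symbols in the counts, and Wapl was found by its gene identifier, since it was listed under the older symbol Wapal. The 6 groups were wt cells from 1 clone and 2 Hmga2 KO clones, called KO#1 and KO#2, each at 0 h and at 24 h, with 3 biological replicates in each, which gives 18 libraries. The 0 h groups were induced pluripotent stem cells (iPSCs) on a layer of inactivated fibroblast feeders, in serum medium with leukaemia inhibitory factor and the inhibitors PD0325901 and CHIR-99021. For 24 h they were moved to a Geltrex matrix with N2, B27, Activin A and bFGF, the conditions used to induce epiblast-like cells (EpiLCs). Each KO group is 1 clone, so a property of the clone and the loss of Hmga2 cannot be told apart within it.

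Cohesin is a ring of Smc1a, Smc3 and Rad21 that extrudes chromatin into loops and holds sister chromatids together. Stag1 and Stag2 are alternative subunits, so that a ring carries one or the other. Nipbl helps to load cohesin and drives extrusion, and Wapl releases the ring from chromatin. Ctcf is the zinc finger protein that stops the extruding ring at the borders of topological domains. Smc2 and Smc4 are the core of both condensins, which compact chromosomes for mitosis. The question put to the counts was how much RNA of this machinery the cells held in each state and clone, in a study whose interest was the folding of the genome without Hmga2.

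Promoter windows were at hand for 6 of the 10 genes in RefSeq (GRCm38.p6), from 250 bases before to 50 after the start that RefSeq gives. Those of Smc2 and Smc3 are shown because they had the largest rises of these 6 over 24 h in wt cells. That of Stag1 is shown as one of a gene that was not called there, as Smc1a was not either. The choice was made after the values were seen. The start of Stag1 in RefSeq lies 45650 bases downstream of its outermost start in GENCODE M21, the annotation used here for exon lengths, so its window is that of a start within the counted gene. All are on the plus strand, at chr4:52438971-52439270, chr19:53600146-53600445 and chr9:100643198-100643497. Capitals mark the CCAAT box, the GC box (GGGCGG) and the E2F-like TTTCCCGC on either strand.
Smc2: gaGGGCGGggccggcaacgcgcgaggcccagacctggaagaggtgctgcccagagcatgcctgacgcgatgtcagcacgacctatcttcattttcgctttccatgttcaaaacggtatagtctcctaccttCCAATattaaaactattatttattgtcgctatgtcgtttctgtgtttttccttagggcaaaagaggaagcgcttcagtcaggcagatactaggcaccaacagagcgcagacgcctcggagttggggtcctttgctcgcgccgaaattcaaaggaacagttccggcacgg
Smc3: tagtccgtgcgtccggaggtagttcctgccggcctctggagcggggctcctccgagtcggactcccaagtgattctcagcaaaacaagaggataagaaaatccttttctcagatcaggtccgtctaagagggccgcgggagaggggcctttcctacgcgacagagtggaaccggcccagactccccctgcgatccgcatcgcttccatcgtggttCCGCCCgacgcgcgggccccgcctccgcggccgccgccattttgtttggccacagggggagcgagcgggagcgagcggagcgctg
Stag1: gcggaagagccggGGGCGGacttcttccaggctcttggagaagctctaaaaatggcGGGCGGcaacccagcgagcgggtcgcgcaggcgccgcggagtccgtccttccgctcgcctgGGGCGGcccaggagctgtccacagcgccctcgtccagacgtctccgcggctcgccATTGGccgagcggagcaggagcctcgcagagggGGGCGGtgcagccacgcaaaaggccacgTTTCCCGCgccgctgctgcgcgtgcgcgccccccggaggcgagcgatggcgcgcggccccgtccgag
CCAAT is the box known to be bound by NF-Y, GGGCGG the GC box of Sp factors, and TTTCCCGC or TTTGGCGC a form of the E2F site. The motifs were sought on both strands and no match overlapped another in these 3 windows. The Smc2 window held 1 CCAAT and 1 GC box, that of Smc3 1 GC box, and that of Stag1 1 CCAAT, 4 GC boxes and 1 TTTCCCGC. The window of Smc1a, not shown, held 1 CCAAT, 1 GC box and 1 TTTCCCGC. Among all 32851 windows of this length, CCAAT was found in 37.4%, GGGCGG in 35.7% and either E2F form in 1.56%. The bases differed too, with 52.7% G and C in the Smc2 window, 65.0% in that of Smc3 and 73.7% in that of Stag1.

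The libraries held from 3466436 to 23872837 counts, and the least deep was replicate 1 of wt cells at 0 h. Protein-coding genes took 41.3% to 84.7% of the counts, with 76.3% to 84.7% in KO#2-labelled libraries and at most 77.4% in the others. Levels are given as CPM, the counts scaled to library size and TMM factor. Hmga2 itself stood at 13.3 to 22.4 CPM in wt cells at 0 h, 1.75 to 10.2 in KO#1 and 1.84 to 8.25 in KO#2-labelled libraries. At 24 h it stood at 5.51 to 5.93 CPM in wt cells, 0.871 to 3.67 in KO#1 and 3.02 to 10.5 in KO#2-labelled libraries (log2 fold change against wt cells -0.04, adjusted p = 0.966). Against wt cells Hmga2 was called lower in KO#2-labelled libraries at 0 h (-1.90, adjusted p = 0.0230 by edgeR's test). It was not called in KO#1 at 0 h (-1.71, adjusted p = 0.124) or at 24 h (-1.36, adjusted p = 0.220). The 24 h KO#2-labelled libraries thus did not show lower Hmga2 RNA than wt cells. The summed level of 10 naive markers fell in wt cells from 3118 to 4303 CPM at 0 h to 300.5 to 327.4 at 24 h, and that of 8 primed markers went from 131 to 205 up to 1331 to 2209.9. The 8 fibroblast markers summed to 110.0 to 390.0 CPM at 0 h and 19.04 to 34.6 at 24 h in wt cells. In KO#1 they summed to 183 to 514 and 38.7 to 51.8, and in KO#2-labelled libraries to 331 to 898 and 71.0 to 219. Over 24 h in wt cells 6 of these 8 markers fell and 1 rose, Dcn. It had 0 counts in all 3 wt libraries of 0 h and 4.45 to 8.33 CPM at 24 h. In the least deep wt library of 0 h, 3 counts would be 0.984 CPM. The part of feeder RNA in the results was not tested.

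All 10 genes were well expressed, with 55 to 7263 counts in a library and 18.04 to 316 CPM. Per kilobase of exon, where genes can be compared, wt cells at 0 h held most Rad21 (36.0 ± 1.83 CPM per kb, SD, n = 3), above all others in every library. Wapl, Smc4, Ctcf, Smc3, Smc1a and Smc2 followed at 15.9 to 10.1 CPM per kb, and each of these differed from its neighbour in the order by less than the larger of their SDs. Nipbl at 5.70 ± 0.75, Stag1 at 4.07 ± 1.25 and Stag2 at 3.40 ± 1.32 CPM per kb were lowest. At 24 h the order in wt cells was led by Smc3 (31.99 ± 3.10), Rad21 (27.6 ± 1.121), Smc2 (26.7 ± 9.27), Wapl (26.6 ± 3.52) and Smc4 (25.5 ± 3.25). Stag2 had moved up to 14.2 ± 5.14 CPM per kb, while Nipbl (4.57 ± 0.38) and Stag1 (3.91 ± 0.39) were then the 2 lowest. These orders depend on the length used. Per kilobase of the longest transcript, a measure added after the data were seen, Stag1 (7.76 ± 2.37) lay above Nipbl (5.70 ± 0.75) and Stag2 (4.56 ± 1.77) in wt cells at 0 h, while Rad21 (38.6 ± 1.96) still led, and at 24 h Smc3 (36.5 ± 3.54) was followed by Smc4 (30.7 ± 3.92). In bulk RNA, fewer cells of a type and less RNA per cell cannot be told apart.

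**Figure D1:**
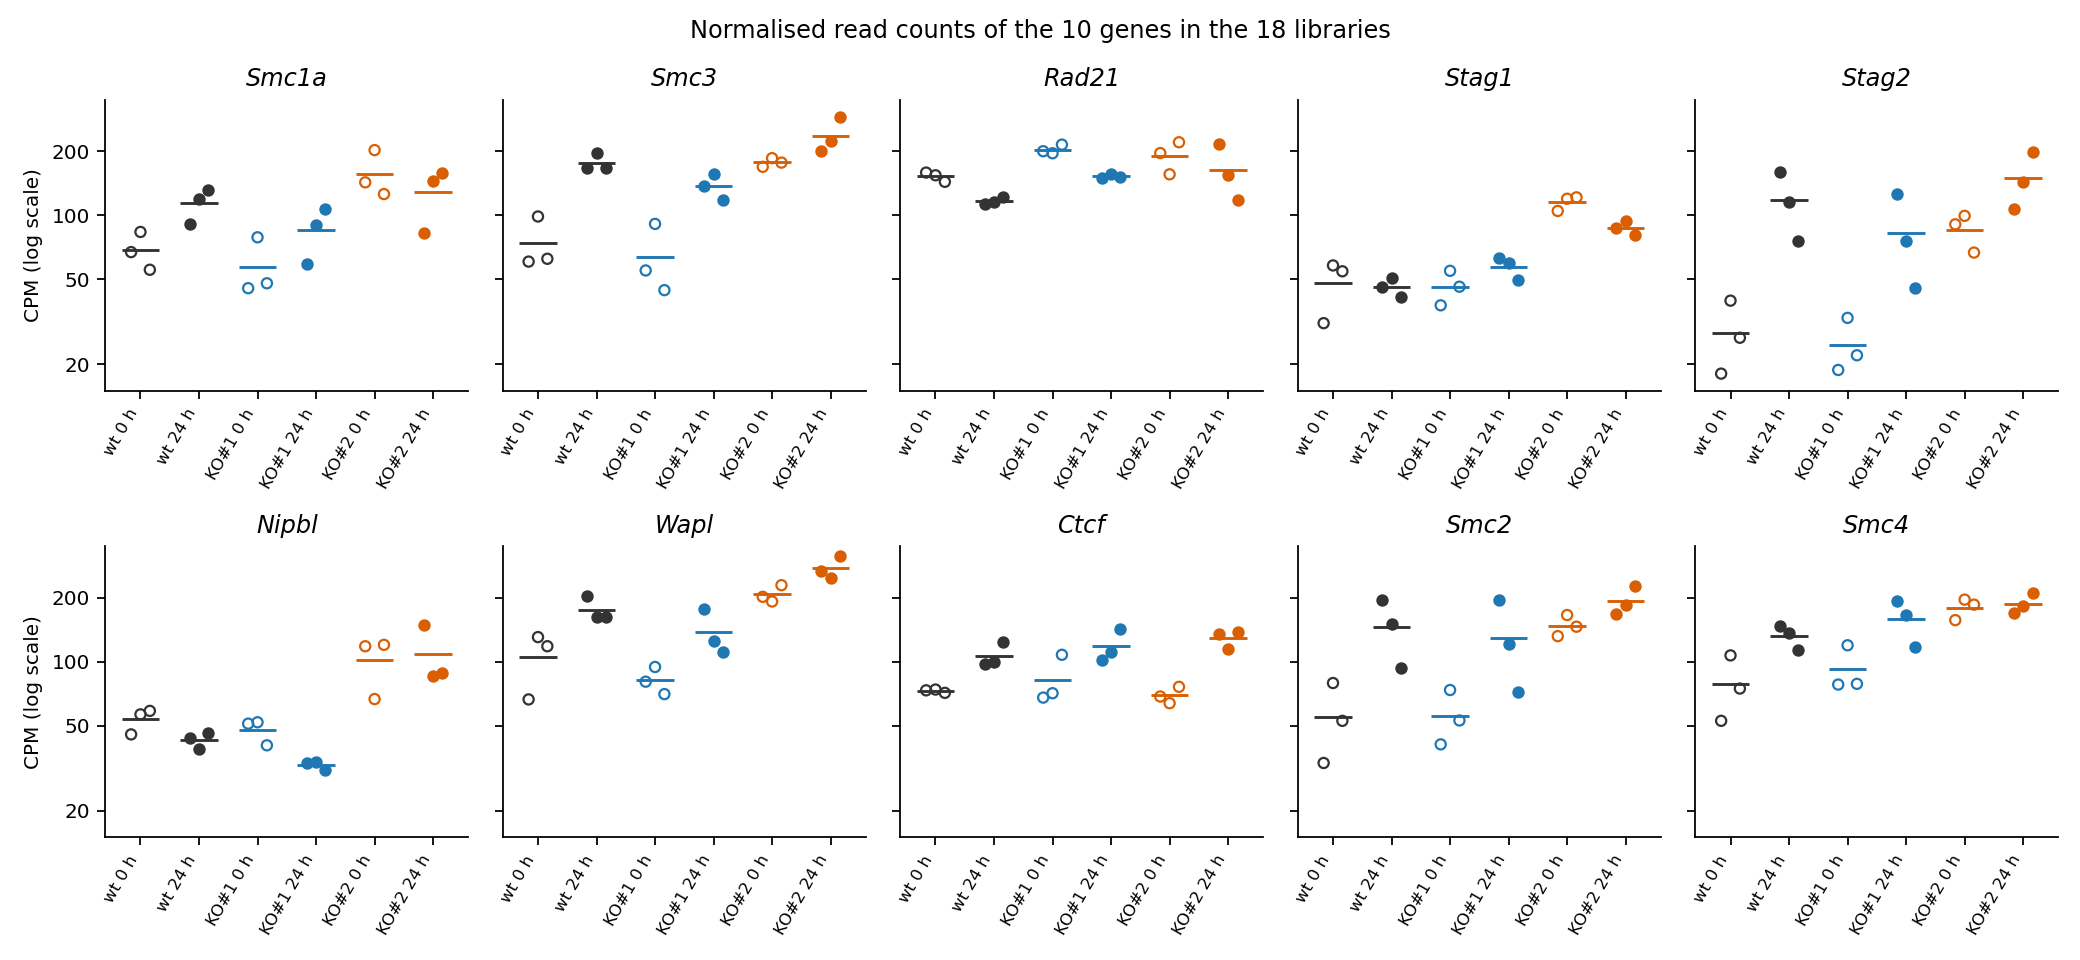
Normalised read counts (CPM, log axis) of the 10 genes in each of the 18 libraries, with open points at 0 h, filled points at 24 h and bars at group means. Stag2 lies at 18.04 to 39.8 CPM in wt cells at 0 h and at 75.9 to 161 at 24 h, while the 0 h KO#2-labelled libraries already lie at 66.9 to 99.6.

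Over 24 h of EpiLC induction the RNA of 6 of the 10 genes rose in wt cells and none fell, by the test with TMM factors. Stag2 rose most, 4.13-fold, followed by Smc2, Smc3, Smc4, Wapl and Ctcf. Among all 16619 genes tested 26.0% were called higher (edgeR's quasi-likelihood test, adjusted p under 0.05), and the median log2 fold change was 0.73 for the 10 genes and 0.03 for all genes tested. In KO#1 the same comparison called 5 genes higher, against 20.1% of all genes, with Ctcf just short of the threshold. In KO#2-labelled libraries it called 1 gene higher, Ctcf, near the 12.7% of all genes. No gene of the 10 was called lower in any of the 3 lines with TMM factors. With offsets corrected for GC content alone Stag2, Smc2 and Smc3 were called higher in wt cells and Nipbl, Rad21 and Stag1 lower, against 27.2% and 25.8% of all genes. In KO#1 Nipbl was then called lower, against 22.7%. With the correction for GC content and length Rad21 was called lower in wt cells, against 22.2%.

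**Figure D2:**
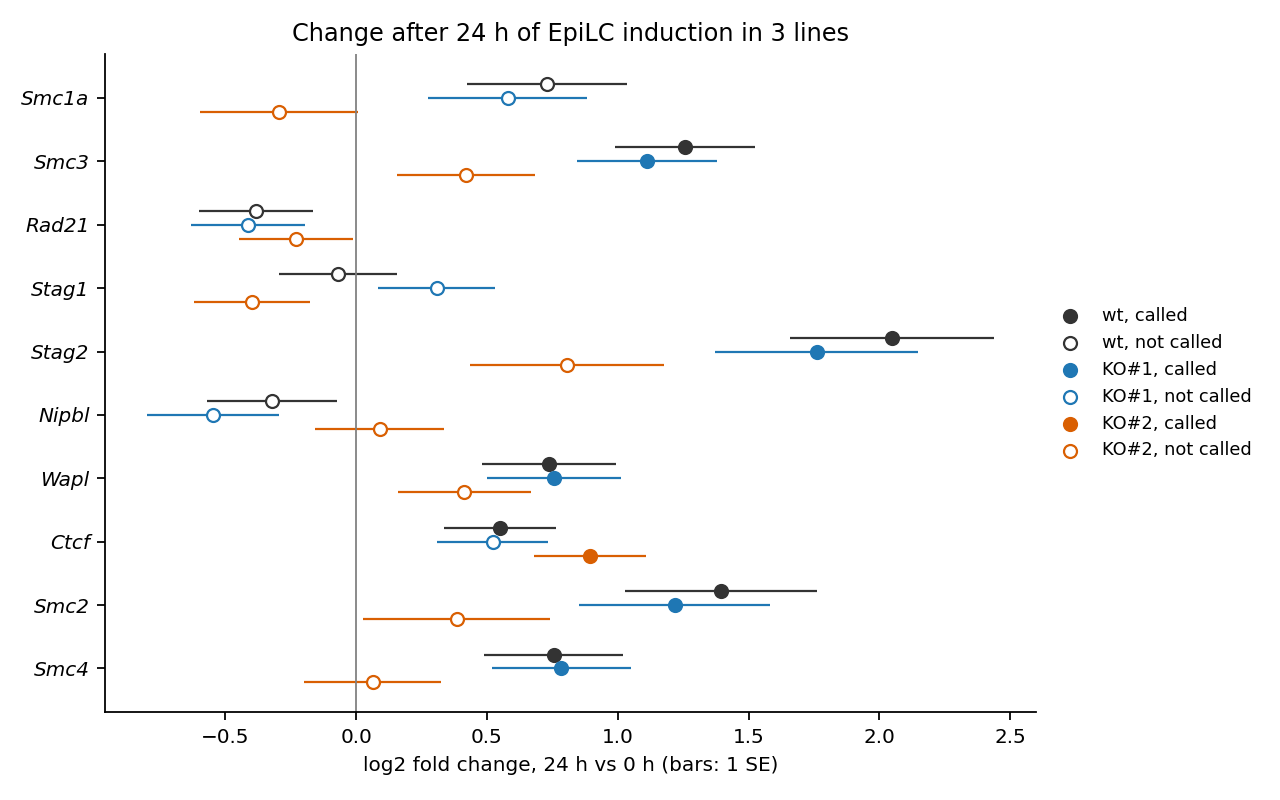
Log2 fold change from 0 h to 24 h of each gene in wt cells, KO#1 and KO#2-labelled libraries, with bars of 1 SE and filled points for adjusted p under 0.05. Stag2 is farthest to the right in wt cells (2.05) and KO#1 (1.76), and Rad21 lies left of 0 in all 3 lines.

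The alternative subunits Stag1 and Stag2 parted. Stag2 stood at 18.04, 39.8 and 26.6 CPM in the wt libraries of 0 h and at 161, 116 and 75.9 CPM in those of 24 h. Its lowest 24 h value was above its highest 0 h value, and its log2 fold change was 2.05 ± 0.39 (SE, adjusted p = 0.000387). In KO#1 it went from 18.8, 33.0 and 22.01 CPM to 127, 76.0 and 45.8 CPM, again without overlap (1.76 ± 0.39, adjusted p = 0.00189). The KO#2-labelled libraries held 90.8, 99.6 and 66.9 CPM of Stag2 at 0 h and 107, 143 and 199 CPM at 24 h, a difference of 0.81 ± 0.37 that was not called (adjusted p = 0.120). Stag1 stood at 31.2, 58.2 and 54.6 CPM in wt cells at 0 h and at 46.3, 50.6 and 41.4 CPM at 24 h, and these values overlapped. Its log2 fold changes over time were -0.07 ± 0.22 in wt cells, 0.31 ± 0.22 in KO#1 and -0.40 ± 0.22 in KO#2-labelled libraries, and none was called. With offsets corrected for GC content alone it was called lower in wt cells (-0.55 ± 0.19, adjusted p = 0.0185), one of 3 genes so called there, with Nipbl and Rad21 (-0.76), against 25.8% of all genes.

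Within a library, the share of Stag2 in the sum of Stag1 and Stag2 (CPM per kb of exon) does not depend on how libraries are scaled. It was 45.2%, 49.3% and 41.0% in wt cells at 0 h and 83.2%, 76.6% and 72.3% at 24 h. In KO#1 it went from 41.4%, 46.1% and 40.4% to 74.2%, 64.5% and 56.9%. The KO#2 share went from 55.2%, 54.2% and 43.9% to 63.5%, 68.4% and 77.8%. The times did not overlap in any of the 3 lines, and at each time the ranges of the 3 lines overlapped. At 24 h the share was nevertheless lower in KO#1 than in the wt library of the same replicate number in all 3 pairs. No test was made on these ratios. The level of the share depends on the length taken for each gene, and with that of the longest transcript it was 32.8% to 40.6% in wt cells at 0 h and 64.8% to 77.7% at 24 h, while the order of the libraries stays the same. Stag2 is X-linked, and the median log2 fold change of the 639 X-linked genes tested was 0.54 for wt cells over 24 h, 0.09 for KO#1 and -0.13 for KO#2. Stag2 thus moved by more than that median in each line, though the part of the X chromosome in its change was not tested.

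**Figure D3:**
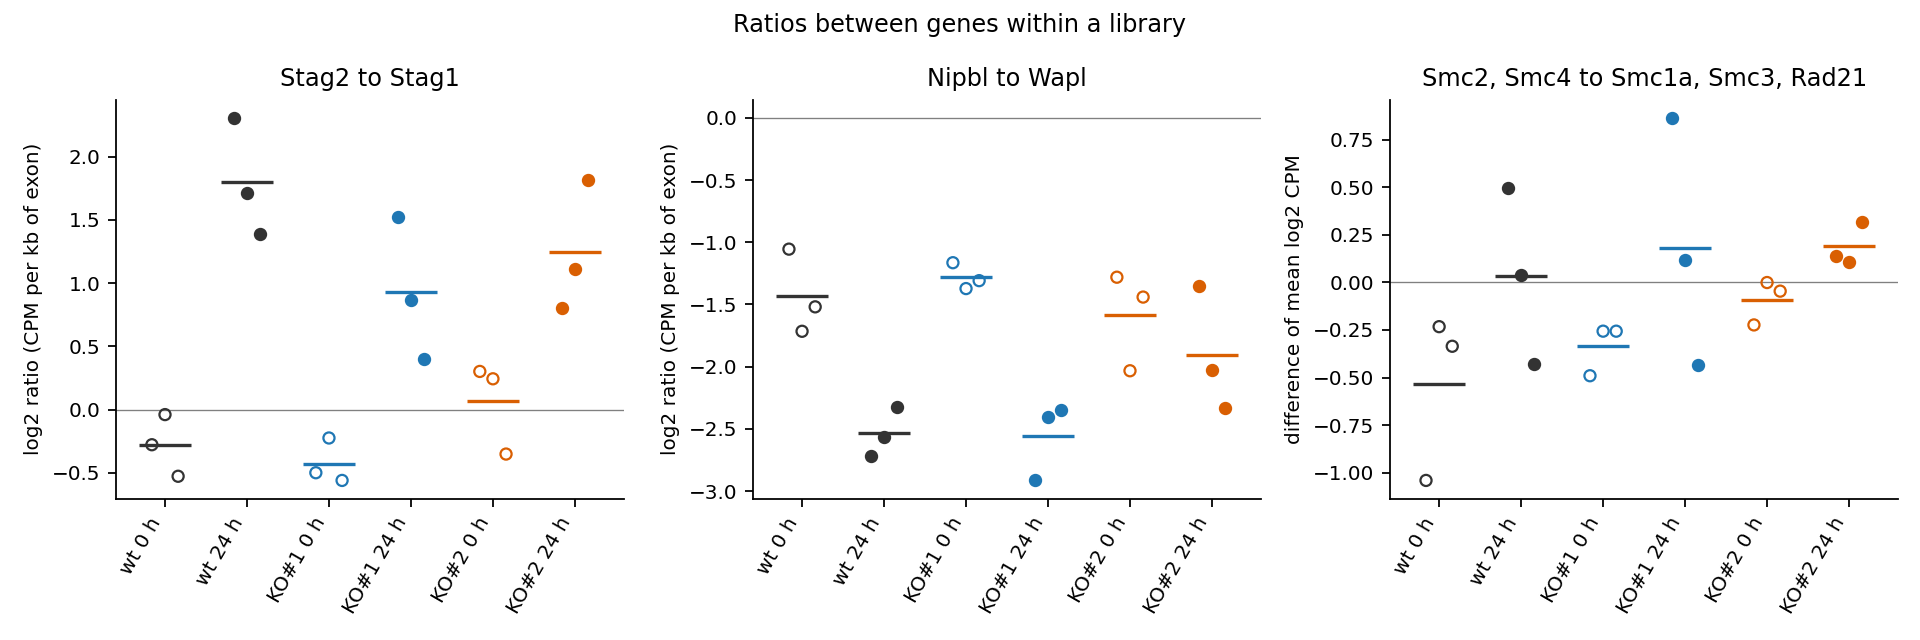
Log2 ratios between genes within each library: Stag2 to Stag1 and Nipbl to Wapl from CPM per kb of exon, and the mean log2 CPM of Smc2 and Smc4 minus that of Smc1a, Smc3 and Rad21. Open points are 0 h, filled points 24 h and bars group means; the Stag2 to Stag1 ratio is higher at 24 h in every line, with means of -0.28 and 1.80 in wt cells.

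Of the ring itself, Smc3 rose while Rad21 did not. Smc3 went from 60.7, 98.9 and 62.6 CPM at 0 h to 167, 197 and 168 CPM at 24 h in wt cells (1.26 ± 0.27, adjusted p = 0.00101). In KO#1 its 0 h values of 55.1, 91.2 and 44.5 CPM became 137, 157 and 118 CPM (1.11 ± 0.27, adjusted p = 0.00356). Every 24 h library of these lines was above every 0 h library. Smc1a, the partner of Smc3 at the hinge of the ring, went in wt cells from 67.2, 83.6 and 55.5 CPM to 91.6, 119 and 132 CPM. The times did not overlap, but the change of 0.73 ± 0.30 missed the threshold (adjusted p = 0.0532), and it was called by DESeq2 (adjusted p = 0.0495). Rad21, the kleisin that closes the ring, stood at 159, 155 and 144 CPM in wt cells at 0 h and at 113, 116 and 122 CPM at 24 h. These values did not overlap either, and its log2 fold change of -0.38 ± 0.22 was not called (adjusted p = 0.150), but it was called lower with the correction for GC content alone (-0.76, adjusted p = 0.0158) and with that for GC content and length (-0.65, adjusted p = 0.0203). In KO#1 Rad21 changed by -0.41 ± 0.22 and in KO#2-labelled libraries by -0.23 ± 0.22.

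The releaser Wapl rose by the test with TMM factors and the loader Nipbl did not. Wapl went from 66.6, 131 and 118 CPM to 203, 163 and 163 CPM in wt cells (0.74 ± 0.26, adjusted p = 0.0227) and from 80.7, 94.6 and 70.5 CPM to 178, 126 and 111 CPM in KO#1 (0.75 ± 0.26, adjusted p = 0.0254). With the correction for GC content alone both calls of Wapl were lost (0.24, adjusted p = 0.343, and 0.45, adjusted p = 0.0806), and with that for GC content and length both were kept. Nipbl stood at 45.6, 56.6 and 58.8 CPM in wt cells at 0 h and at 43.9, 39.1 and 46.1 CPM at 24 h (-0.32 ± 0.25, adjusted p = 0.291). In KO#1 its 3 values of 24 h, 30.9 to 33.7 CPM, were all below those of 0 h, 40.5 to 52.0 CPM, with a change of -0.55 ± 0.25 that was not called. The log2 ratio of Nipbl to Wapl per kb of exon was -1.72 to -1.06 in wt cells at 0 h and -2.72 to -2.33 at 24 h. In KO#1 it ranged from -1.37 to -1.16 at 0 h and from -2.91 to -2.35 at 24 h, so that in both lines the times were apart. For KO#2 the ranges, -2.03 to -1.28 and -2.33 to -1.35, overlapped. Nipbl has the longest transcript of the 10 genes (9423 bases), and genes of the longest quintile moved by a median of -0.58 (log2) over 24 h in wt cells. With offsets corrected for GC content and length the change of Nipbl was 0.10 in wt cells and 0.01 in KO#1, not called in either. With the correction for GC content alone it was called lower in both, by -0.80 ± 0.30 in wt cells (adjusted p = 0.0304) and -0.79 ± 0.30 in KO#1 (adjusted p = 0.0387), where it was the one gene of the 10 called lower, against 22.7% of all genes. The direction and the call of Nipbl over time thus depend on which correction is made.

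Ctcf was the 1 gene of the 10 that was called over time in KO#2-labelled libraries, a count near the 12.7% of all genes. It went there from 68.7, 63.9 and 76.3 CPM to 135, 115 and 138 CPM (0.90 ± 0.21, adjusted p = 0.00511). In wt cells it went from 73.5, 74.1 and 71.5 CPM to 97.3, 99.5 and 124 CPM (0.55 ± 0.21, adjusted p = 0.0393). In KO#1 it went from 67.9, 71.2 and 108 CPM to 102, 111 and 142 CPM (0.52 ± 0.21, adjusted p = 0.0581), where 1 library of 0 h lay above 1 of 24 h. The test of the difference in this rise called neither KO clone apart from wt cells, at 0.34 ± 0.30 between KO#2-labelled libraries and wt cells (adjusted p = 0.495) and -0.03 ± 0.30 between KO#1 and wt cells (adjusted p = 0.995), and the rises of the 2 clones were not tested against each other. The call in wt cells was lost when any one of the 6 wt libraries was left out, with log2 fold changes of 0.38 to 0.60 and adjusted p of 0.0603 to 0.201. It was also lost without KO#1 replicate 2 of 0 h or replicate 1 or 2 of 24 h. With the correction for GC content alone the call in wt cells was lost (0.38, adjusted p = 0.123). With that for GC content and length it was kept (0.50, adjusted p = 0.0289). The call in KO#2-labelled libraries was kept in all 18 fits that left out 1 library.

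Both condensin genes rose in wt cells and KO#1 by the test with TMM factors. Smc2 went from 33.5, 79.5 and 52.8 CPM to 195, 149.98 and 93.6 CPM in wt cells (1.39 ± 0.37, adjusted p = 0.00436) and from 40.9, 73.7 and 53.0 CPM to 196, 121 and 72.1 CPM in KO#1 (1.22 ± 0.36, adjusted p = 0.0133). In wt cells the times did not overlap, and in KO#1 replicate 3 of 24 h lay below replicate 2 of 0 h. Smc4 went from 52.8, 107 and 74.9 CPM to 147, 137 and 114 CPM in wt cells (0.75 ± 0.27, adjusted p = 0.0250) and rose by 0.78 ± 0.27 in KO#1 (adjusted p = 0.0255). The call of Smc4 in wt cells was lost with the correction for GC content alone (0.22, adjusted p = 0.353) and with that for GC content and length (0.42, adjusted p = 0.0625), and in KO#1 with the first of these (0.46, adjusted p = 0.0658). In KO#2-labelled libraries Smc2 stood at 132 to 166 CPM and then at 168 to 227 CPM, and Smc4 at 157 to 196 CPM and then at 169 to 209.7 CPM, changes of 0.38 ± 0.36 and 0.06 ± 0.26 that were not called. The Smc4 gene also holds the microRNA genes Mir15b and Mir16-2 on its own strand. The mean log2 CPM of Smc2 and Smc4 minus that of Smc1a, Smc3 and Rad21 went from -0.54 ± 0.44 to 0.03 ± 0.46 in wt cells (SD, n = 3), and these ranges overlapped.

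The fibroblast sum fell and the primed sum rose over the same 24 h, and their part in these changes was not tested. Calls of Stag2, Smc2 and Smc3 in wt cells held in all 6 fits that left out 1 wt library, and those of Stag2 and Smc3 in KO#1 held likewise. Without the least deep library, wt replicate 1 of 0 h, the count in wt cells went from 6 to 3, and without wt replicate 1 of 24 h also to 3. Of all genes, in either direction, 50.7% were called with all libraries, and 41.5% and 40.3% without these. In KO#1 the count of 5 fell to 2 without replicate 1 of either time, and to 4 without replicate 3 of 0 h or replicate 2 of 24 h. There 40.8% of all genes were called with all libraries, and 26.4% and 29.7% without replicate 1 of 0 h and of 24 h. Without replicate 3 of 0 h and replicate 2 of 24 h the shares were 41.3% and 29.9%. The values without wt replicate 1 of 0 h were 0.50 for Smc4 and 0.46 for Wapl, and without KO#1 replicate 1 of 24 h 0.78 for Smc2, 0.61 for Smc4 and 0.52 for Wapl.

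Whether the response itself differed between lines was tested with the interaction term. Between KO#1 and wt cells 0 of the 10 genes were called by edgeR, against 0.391% of all genes, with 0 at an unadjusted p under 0.05, against 10.1%, and 0 by DESeq2, against 1.84%. Between KO#2-labelled libraries and wt cells 0 were called, against 1.47% of all genes, and 0 by DESeq2, against 9.33%. At an unadjusted p under 0.05 there were 3 (Smc1a, Stag2 and Smc3), near the 23.6% of all genes. The KO#2 response was lower by 1.24 ± 0.53 for Stag2 (adjusted p = 0.174), by 1.02 ± 0.43 for Smc1a (adjusted p = 0.167) and by 0.84 ± 0.37 for Smc3 (adjusted p = 0.190), on the log2 scale. So the smaller changes in KO#2-labelled libraries are not shown to differ from those of wt cells.

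At 0 h the levels of the 2 clones stood apart. In KO#2-labelled libraries, 8 of the 10 genes were higher than in wt cells, all but Ctcf and Rad21, against 21.5% of all genes, and 0 were lower, against 16.6%. A correction of the offsets for GC content and length ended 7 of these 8 calls and left Smc1a. The median log2 fold change was 1.19 for the 10 genes and 0.10 for all genes tested. Stag2 led with 1.59 ± 0.38 (adjusted p = 0.00451), then Smc2 with 1.41 ± 0.37 (adjusted p = 0.00689), Smc3 with 1.26 ± 0.27 (adjusted p = 0.00209) and Stag1 with 1.26 ± 0.23 (adjusted p = 0.000652). Stag1 stood at 105, 120 and 122 CPM there, against 31.2 to 58.2 CPM in wt cells and 37.8 to 54.9 CPM in KO#1. Smc1a stood at 143, 203 and 126 CPM, against 55.5 to 83.6 CPM in wt cells (1.19 ± 0.31, adjusted p = 0.00666). Smc4 was higher by 1.19 ± 0.27, Wapl by 0.98 ± 0.26 and Nipbl by 0.92 ± 0.25. For these 8 genes the 3 KO#2 libraries lay above all 3 wt libraries, as they did for 29.7% of all genes, and the count stayed at 8 whichever 1 of the 18 libraries was left out. Ctcf, at 63.9 to 76.3 CPM against 71.5 to 74.1 CPM, did not differ beyond its spread (-0.07 ± 0.21, adjusted p = 0.819), and Rad21 was not called (0.33 ± 0.22, adjusted p = 0.240).

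KO#1 at 0 h showed none of this. There 0 of the 10 genes were called against wt cells, against 6.67% of all genes, with 0 at an unadjusted p under 0.05, against 19.9%, and 0 by DESeq2, against 9.06%. The log2 fold changes ranged from -0.37 ± 0.26 for Wapl to 0.42 ± 0.22 for Rad21. Rad21 alone did not overlap between the groups, with 196 to 215 CPM in KO#1 and 144 to 159 CPM in wt cells (adjusted p = 0.301), while 20.5% of all genes did not overlap. Against KO#1, KO#2-labelled libraries held more of the same 8 genes at 0 h, against 15.1% of all genes, from 0.96 ± 0.27 for Smc4 to 1.81 ± 0.39 for Stag2. With the correction for GC content and length only Smc1a and Smc3 kept their calls, against 9.24% of all genes. The comparisons with wt cells and with KO#1 share the KO#2 libraries.

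The difference at 0 h moved with base composition. Over all genes the median log2 fold change of KO#2-labelled libraries against wt cells went from 1.03 in the quintile of genes with the least G and C (median 41.0%) to -0.68 in the quintile with the most (57.8%), and from 0.01 in the shortest to 0.44 in the longest quintile of transcripts. The transcripts of the 10 genes hold 38.1% to 46.9% G and C and are 3782 to 9423 bases long, in the 2 lowest quintiles of G and C and the 2 highest of length. A correction for GC content and length takes out any trend shared by genes alike in both, whether technical or biological. When the offsets were corrected for GC content and length, 1 of the 10 genes remained called higher, Smc1a (0.96 ± 0.31, adjusted p = 0.0268), against 15.9% of all genes, and 0 were called lower, against 11.3%. Stag2 then stood at 0.59, Smc2 and Smc3 at 0.51 each, Stag1 at 0.45 and Wapl at 0.13, none called, and Nipbl at -0.05. In wt cells over time the median went from 0.41 to -0.34 across the quintiles of G and C, a weaker trend, and from 0.89 to -0.58 across those of length, a stronger one. There the same correction called 6 genes higher, against 27.5% of all genes. These were Stag2 (2.08), Smc2 (1.29), Smc3 (1.11), Smc1a (1.00), Wapl (0.84) and Ctcf (0.50), with Smc4 (0.42) no longer called. It also called Rad21 lower (-0.65 ± 0.22, adjusted p = 0.0203), against 22.2% of all genes. In KO#1 over time it called 8 genes higher, all but Nipbl and Rad21, against 23.2%, and in KO#2-labelled libraries it called Stag2 (1.01), Ctcf (0.87) and Wapl (0.57), against 17.3%. The correction for GC content alone called Stag2 (1.46), Smc2 (0.82) and Smc3 (0.78) higher in wt cells, against 27.2% of all genes, and the same 3 in KO#1 (1.33, 0.81 and 0.85), against 22.1%. In the KO#2 time comparison it called Ctcf (0.88) and Stag2 (0.79), against 15.0%.

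**Figure D4:**
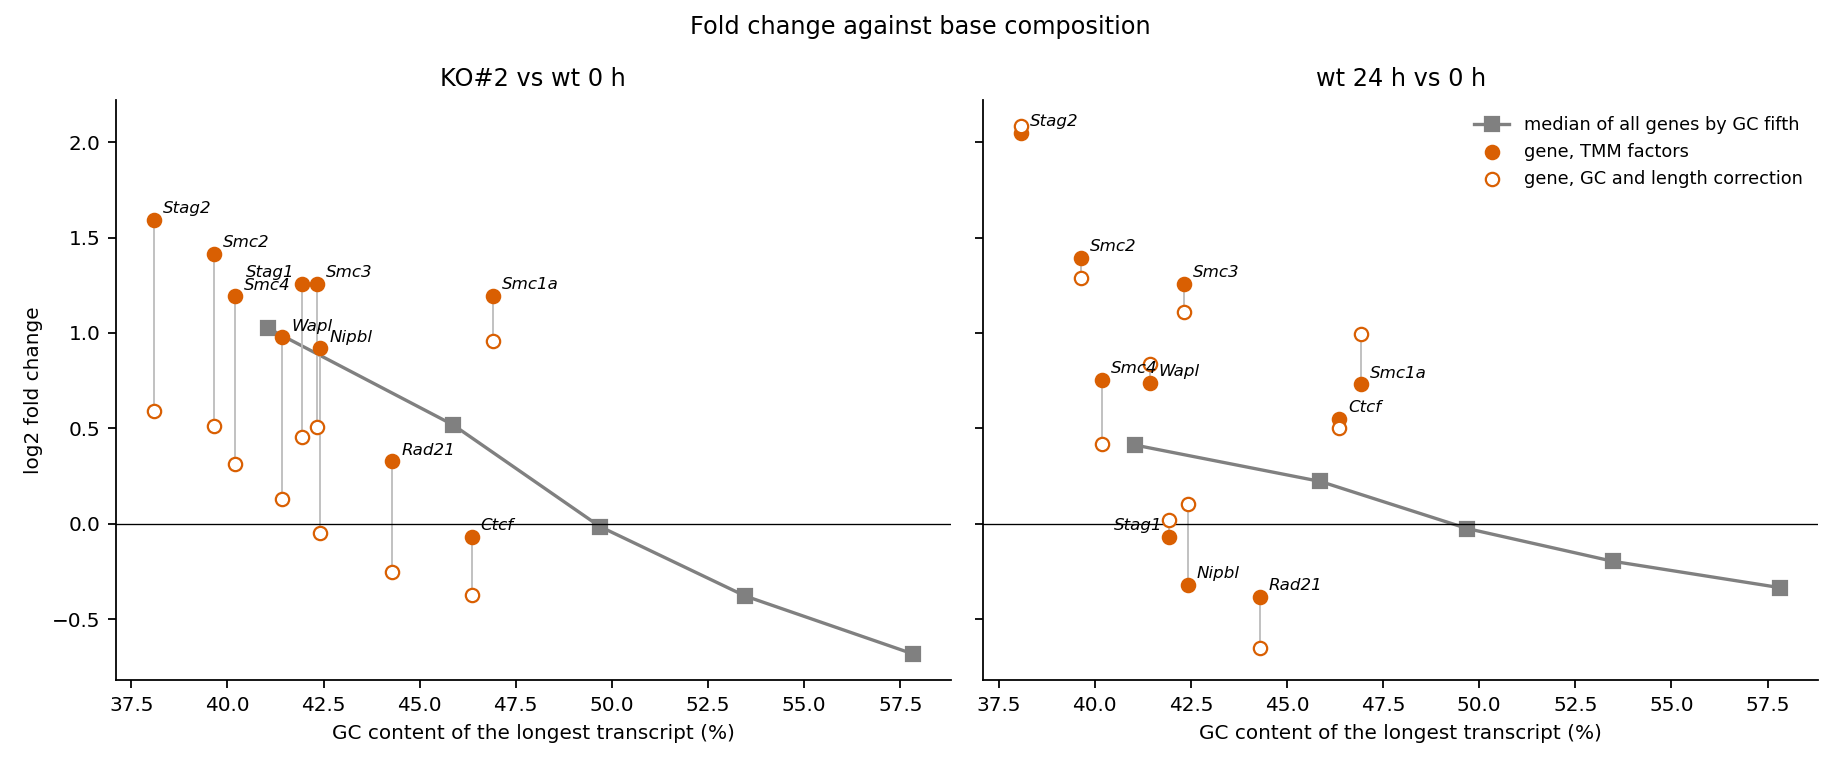
Log2 fold change of each gene against the GC content of its longest transcript, with TMM factors (filled) and after correction for GC content and length (open), beside the median of all genes in quintiles of GC content (grey). In KO#2-labelled libraries against wt cells at 0 h the grey line goes from 1.03 to -0.68 and the open points of 9 genes are not called, while over 24 h in wt cells Stag2 stays at 2.05 and 2.08.

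Smc1a and Stag2 are on the X chromosome. For KO#2-labelled libraries against wt cells at 0 h the median log2 fold change was 0.93 over the 639 X-linked genes and 0.06 over the autosomal genes. After the correction for GC content and length the X-linked median was 0.50 and the autosomal 0.09. Xist, the RNA that silences an X chromosome, stood at 39.2 to 85.3 CPM in KO#2-labelled libraries and at 2.86 to 10.3 CPM in the other libraries of 0 h. The part of the X chromosome in the levels of Smc1a and Stag2 was not tested. The part of the fibroblast markers, which summed to 331 to 898 CPM in these libraries and 110.0 to 390.0 CPM in wt cells, was not tested either. The 3 shared pluripotency markers summed to 888 to 1046 CPM in KO#2-labelled libraries at 0 h and 1650 to 2462 CPM in wt cells. Their part was not tested.

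At 24 h 2 of the 8 genes called at 0 h, Nipbl and Stag1, were again called higher than in wt cells for KO#2. In KO#2-labelled libraries Nipbl stood at 150, 86.3 and 89.1 CPM, above the wt values of 43.9, 39.1 and 46.1 CPM (1.33 ± 0.25, adjusted p = 0.000607). Stag1 stood at 87.5, 94.3 and 80.8 CPM against 41.4 to 50.6 CPM (0.93 ± 0.22, adjusted p = 0.00390). These were the 2 of 10 called, a count near the 21.3% of all genes called higher. All 10 log2 fold changes were above 0 with TMM factors, with a median of 0.45, and that of all genes was 0.20, but with the correction for GC content and length 7 of them were below 0. Wapl at 0.65 ± 0.25 just missed the threshold (adjusted p = 0.0510). With the correction for GC content and length 0 of the 10 were called, at values of -0.48 for Stag2 to 0.25 for Nipbl, while 34.5% of all genes were called in either direction. With the correction for GC content alone Nipbl (1.03 ± 0.29, adjusted p = 0.0116) and Stag1 (0.60 ± 0.18, adjusted p = 0.0162) were still called, near the 22.1% of all genes called higher. Against KO#1 at 24 h, Nipbl (1.73 ± 0.25), Wapl (1.00 ± 0.26), Smc3 (0.79 ± 0.26) and Stag1 (0.61 ± 0.22) were higher, 4 of 10 against 19.3% of all genes. The count fell to 2 or 3 whichever 1 of the 6 libraries of these groups was left out. After the correction Nipbl was left (0.45 ± 0.16, adjusted p = 0.0490), against 14.2% of all genes. At 0 h the same correction left Smc1a (1.21 ± 0.31) and Smc3 (0.76 ± 0.23) higher than in KO#1, against 9.24% of all genes.

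Between KO#1 and wt cells at 24 h 0 of the 10 genes were called, against 9.86% of all genes, with 0 at an unadjusted p under 0.05, against 22.3%, and 0 by DESeq2, against 12.8%. With the replicate number as a block over all 18 libraries 0 were called as well. In these 2 groups libraries with the same replicate number deviated together, with correlations of 0.48, 0.22 and 0.59. With the block in the 6 libraries of these groups alone, a fit chosen after the data were seen, 7 of the 10 genes were called: Stag2, Smc1a, Smc3, Nipbl and Wapl lower in KO#1, and Rad21 and Stag1 higher. The labels do not say that libraries of the same number belong together, and the pairing was taken from these same 6 libraries. The adjusted p of this fit is thus not independent of that choice. Calls over all genes went from 10.3% without the block to 36.6% with it. The 5 lower in KO#1 were Stag2 (-0.56 ± 0.10, adjusted p = 0.000653), Smc1a (-0.44 ± 0.09, adjusted p = 0.00271), Nipbl (-0.40 ± 0.10, adjusted p = 0.00912), Smc3 (-0.38 ± 0.09, adjusted p = 0.00546) and Wapl (-0.37 ± 0.10, adjusted p = 0.00849), against 18.5% of all genes called lower. Rad21 (0.39 ± 0.09, adjusted p = 0.00363) and Stag1 (0.31 ± 0.09, adjusted p = 0.0205) were higher, against 18.1%. In all 3 pairs Stag2 was lower in KO#1, with 127 against 161, 76.0 against 116 and 45.8 against 75.9 CPM. Rad21 was higher in all 3, with 150 against 113, 157 against 116 and 152 against 122 CPM. Nipbl at 33.6, 33.7 and 30.9 CPM lay below every wt library. Ctcf (0.14 ± 0.09), Smc4 (0.24 ± 0.10) and Smc2 (-0.22 ± 0.10) were not called. When the correction for GC content and length was added to the block, Stag2 (-0.28), Smc1a (-0.43), Smc3 (-0.23), Rad21 (0.46) and Stag1 (0.50) kept their calls, Smc4 (0.43) gained one, and Nipbl (-0.20) and Wapl (-0.17) lost theirs. That fit called 21.8% of all genes lower and 20.4% higher. The X-linked genes had a median of -0.33 in this comparison and the autosomal genes one of -0.01, and the part of the X chromosome in the lower Stag2 and Smc1a was not tested. The naive markers summed to 485 to 604 CPM in KO#1 at 24 h, against 300.5 to 327.4 in wt cells, and the primed markers to 578 to 1160 CPM against 1331 to 2209.9, without overlap in either sum. The part of this difference in cell state in the 7 calls was not tested.

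**Figure D5:**
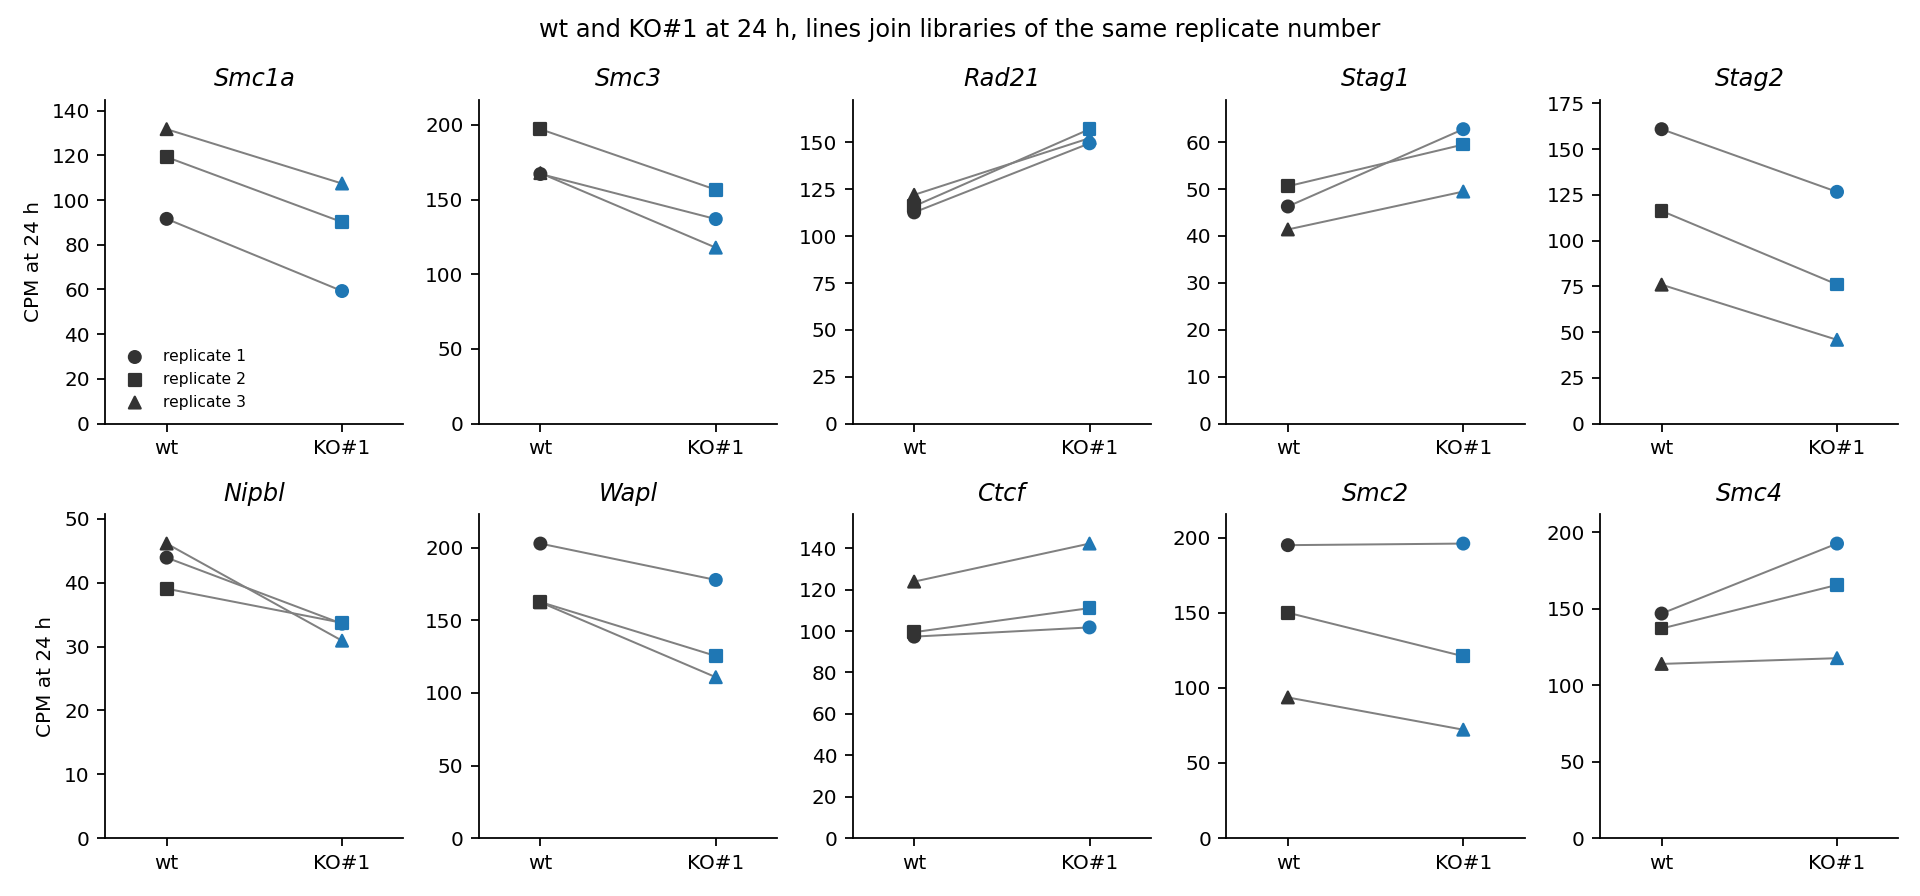
CPM of the 10 genes in wt cells and KO#1 at 24 h, with lines joining libraries of the same replicate number. The lines of Stag2, Smc1a, Smc3, Nipbl and Wapl go down in all 3 pairs and those of Rad21, Stag1, Ctcf and Smc4 go up, while those of Smc2 differ in direction.

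Further genes of the pathway were counted from lists chosen with earlier results of these data known. Of 10 cohesin regulators, 3 rose in wt cells over 24 h, near the 26.0% of all genes, and 1 fell, against 24.7%. Cdca5, the sororin that protects cohesion, rose by 1.21 ± 0.23 in wt cells, 1.89 ± 0.23 in KO#1 and 1.44 ± 0.23 in KO#2-labelled libraries. Esco2, an acetyltransferase for Smc3 in S phase, rose by 1.53 ± 0.40 in wt cells and 1.54 ± 0.40 in KO#1, and Sgo1, which shields cohesin at centromeres, by 0.70 ± 0.23 and 0.58 ± 0.22. Espl1, the separase that cleaves Rad21, fell by 1.15 on the log2 scale in wt cells (SE 0.36) and was -0.87 in KO#1, where it was not called. After the correction for GC content and length Espl1 (0.33) and Sgo1 (0.18) were not called in wt cells, and Espl1 changed sign, whereas Cdca5 (1.13) and Esco2 (1.122) were called. In KO#1 the list had 4 higher, with Esco1 (1.08 ± 0.40) added, and 0 lower, against 20.1% and 20.6% of all genes. For KO#2 it had 1 higher and 0 lower, against 12.7% and 13.3%. After the correction the counts were 4 higher and 1 lower in wt cells, 3 and 1 in KO#1, and 1 and 0 in the KO#2 comparison, against 27.5% and 22.2%, 23.2% and 19.5%, and 17.3% and 16.3% of all genes, with Pttg1, the securin, the gene then called lower (-1.70 in wt cells and -0.95 in KO#1).

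Among the 3 meiotic cohesin genes with enough counts, Rec8, the kleisin of meiosis, fell in all 3 lines, by 1.81 in wt cells (SE 0.42), 1.71 in KO#1 and 1.21 in KO#2-labelled libraries on the log2 scale. It was the 1 of 3 called lower in each line, where 24.7%, 20.6% and 13.3% of all genes were. It was low throughout, at 6.84 to 18.04 CPM in wt cells at 0 h and 2.76 to 3.58 CPM at 24 h. Smc1b and Stag3 were not called over time, but after the correction for GC content and length both were called higher in the KO#2 comparison (1.31 and 0.90), where 17.3% of all genes were. Of the 6 condensin genes other than Smc2 and Smc4, 3 rose in wt cells and in KO#1 and none in KO#2-labelled libraries, against 26.0%, 20.1% and 12.7% of all genes. Those were Ncapg (1.14 ± 0.40 in wt cells), a subunit of condensin I, and Ncapg2 (0.72 ± 0.25) and Ncapd3 (0.72 ± 0.21), subunits of condensin II. The median of these 6 was 0.50 for wt cells, 0.43 for KO#1 and 0.13 for KO#2, beside 0.03, 0.00 and -0.03 over all genes tested. The correction for GC content and length gave 5, 5 and 0 called higher, against 27.5%, 23.2% and 17.3% of all genes. Of the 6 genes of the Smc5/6 complex, a further SMC system of DNA repair, 0 were called in wt cells, 1 fell in KO#1 (Nsmce3, -0.63 ± 0.22) and 1 in KO#2-labelled libraries (Nsmce2, -0.82 ± 0.23), while 20.6% and 13.3% of all genes fell in these 2 comparisons. After the correction Nsmce3 (-0.31) was no longer called and Nsmce2 (-0.95) was, against 19.5% and 16.3% called lower. Smc5 (0.44) in wt cells and Smc6 (0.82) in KO#1 were then called higher, against 27.5% and 23.2% of all genes.

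Of 5 genes that bind with Ctcf or at loop anchors, 2 were called higher and 2 lower in wt cells, against 26.0% and 24.7% of all genes. In KO#1 2 were higher and 1 lower, against 20.1% and 20.6%, and in KO#2-labelled libraries 2 and 0, against 12.7% and 13.3%. Zfp143 rose by 1.57 ± 0.27 in wt cells and 1.25 ± 0.26 in KO#1. Ctcfl, the germline paralogue of Ctcf, was called higher in wt cells, where it went from 1 to 5 counts a library to 13 to 24, and in KO#2-labelled libraries, from 10 to 21 counts to 42 to 64. These counts are not scaled to depth, and wt libraries held 3466436 to 10599720 counts in all at 0 h and 19675403 to 23872837 at 24 h. Maz, a zinc finger protein found with Ctcf at boundaries, rose by 0.75 ± 0.25 in KO#1 and 1.14 ± 0.25 in KO#2-labelled libraries. Ldb1, a bridge between enhancers and promoters, fell in wt cells (-1.28 ± 0.26) and Yy1 in wt cells (-0.75 ± 0.26) and KO#1 (-0.73 ± 0.25). After the correction for GC content and length Ldb1 (-0.57) was still called in wt cells and Yy1 was not (0.24 in wt cells and 0.03 in KO#1), while Maz was called higher in wt cells (1.16). The list then had 3 higher and 1 lower in wt cells, against 27.5% and 22.2% of all genes. In KO#1 and KO#2 it had 2 higher and 0 lower each, against 23.2% and 19.5%, and 17.3% and 16.3%. Of 10 genes of mitosis, 7 rose in wt cells, 6 in KO#1 and 1 in KO#2-labelled libraries, and none fell, while 26.0%, 20.1% and 12.7% of all genes rose. The 1 of 10 in the KO#2 comparison is near its share. After the correction for GC content and length 9, 10 and 1 were called higher, against 27.5%, 23.2% and 17.3% of all genes. Against wt cells at 0 h 6 of them were higher in KO#2-labelled libraries before the correction, against 21.5% of all genes, and 0 after it, against 15.9%. Ccnb1 (1.97 ± 0.41), Cdc20 (1.93 ± 0.24), Top2a (1.59 ± 0.29) and Cdk1 (1.47 ± 0.42) led in wt cells. The summed level of these 10 genes was 908 to 1341 CPM in wt cells at 0 h, 1693 to 1880.4 CPM in KO#2-labelled libraries at 0 h, and 2239 to 2918 CPM in all 9 libraries of 24 h. The part of the share of cycling cells in the levels of Smc2 and Smc4 was not tested.

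Across the 18 libraries the genes with the nearest pattern to each were sought among 10129 genes, by the root mean square (RMS) difference of their centred log2 CPM. For Stag2 they were Zfp850 (0.26), Ppil4 (0.27) and Ddx3x (0.27), beside an RMS of 1.08 for Stag2 around its own mean. Zfp850 (0.15) and Ppil4 (0.17) were also among the 3 nearest to Smc2, beside 0.83 for Smc2 itself. Nearest to Smc4 were Bmpr1a (0.18), Mynn (0.19) and Sgo1 (0.19), and to Smc3 Casp8ap2 (0.19), Plcb4 (0.20) and Ltn1 (0.22). Usp4, Cand1 and Mcmbp followed Ctcf at 0.15 to 0.16, Rc3h1, Ankrd17 and Dlg1 followed Nipbl at 0.17 to 0.21, and Zfp644, Haus6 and Atad2 followed Wapl at 0.17 to 0.19. Stag1 was nearest to Trappc8, Ubr1 and Sgo2a (0.18 to 0.20) and Smc1a to Eprs, Rnf20 and Kif4 (0.24 to 0.25). Rad21 varied least, with 0.31 around its own mean, and its nearest genes, Ap1g1, Wdr11 and Mcph1, were at 0.23 each. These 18 points share library depth and base composition trends, so the likeness is a description.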

How the data were processed

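RNA was measured in 18 libraries (stranded total RNA, Illumina NovaSeq). The authors deposited raw gene counts, whole numbers made with nf-core rnaseq, Trim Galore and STAR against GRCm38. The annotation release and the strand setting of the counting are not given in the sources used here. Counts were tested with edgeR 4.0.16 in R 4.3.3 (TMM factors, filterByExpr with a minimum count of 10, quasi-likelihood test, all 6 groups in 1 model), with Benjamini-Hochberg adjustment over 16619 genes and calls at an adjusted p under 0.05. Errors of log2 fold changes are SEs from the quasi-likelihood F. CPM per kb used exon lengths of GENCODE M21. All 10 genes passed the filter. Totals of 3466436 to 23872837 counts set the precision. The replicates are labelled as biological ones, and p-values measure the spread between these libraries.

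Alternatives were DESeq2 1.42.0, RLE factors, library sizes alone, protein-coding genes only, no filter on low counts, a replicate block and leaving out each library. Offsets corrected for GC content, or GC content and length (16517 genes), and the fits of the 24 h groups of wt cells and KO#1 alone were chosen after seeing the data. In those 2 groups libraries of the same number correlated at 0.48, 0.22 and 0.59 in their deviations from group means, and the pairing was taken from this. Over all 45 same-number pairs the mean was 0.05. The code was tested on simulated data. All 10 genes are named. Only some of the listed genes are named, from those called over time or where a contrast needed them. The genes and lists were chosen with earlier results of these data known.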

Additional observations from a re-analysis of the deposited data

Results flagged for a closer look

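Of the 10 genes, 8 were called higher in KO#2-labelled libraries than in KO#1 at 0 h and 4 at 24 h by edgeR's test, against 15.1% and 19.3% of all genes, although both clones carry the same label of Hmga2 loss. At 0 h the KO#2-labelled libraries were higher than KO#1 by 1.81 for Stag2, 1.48 for Smc3, 1.46 for Smc1a, 1.41 for Smc2, 1.34 for Wapl, 1.32 for Stag1, 1.09 for Nipbl and 0.96 for Smc4 on the log2 scale. After correction for GC content and length these were 0.66, 0.76, 1.21, 0.43, 0.44, 0.47, 0.06 and 0.10 in the same order, with Smc1a and Smc3 called. At 24 h the differences were 1.73 for Nipbl, 1.00 for Wapl, 0.79 for Smc3 and 0.61 for Stag1, and 0.45, 0.04, 0.08 and -0.32 after the correction, with Nipbl called. The correction takes out any trend shared by genes of like GC content and length, whether technical or biological. The part of base composition in these differences was thus not tested.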

How the results depend on the processing

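Counts of called genes depended on scaling and on the correction for base composition. Over 24 h, the 6 called in wt cells became 3 with library sizes alone, the 5 in KO#1 became 2 with library sizes alone and 8 with GC and length correction, GC correction alone called 3 higher and 3 lower (Nipbl, Rad21 and Stag1) in wt cells and 3 higher and Nipbl lower in KO#1, and the 1 in KO#2-labelled libraries became 0 with library sizes alone, 2 without a filter or with GC correction and 3 with GC and length correction. Against wt cells at 0 h the 8 of KO#2 became 1 with either correction, and against KO#1 4 with GC and 2 with GC and length correction. At 24 h the 2 of KO#2 against wt cells became 4 with DESeq2 or protein-coding genes only, 10 with library sizes alone and 0 with GC and length correction, and the 4 against KO#1 became 10 with library sizes alone and 1 with either correction. Of all genes, in either direction, 37.3% were called in KO#2 against wt cells at 24 h, and 40.5% with DESeq2, 35.7% of protein-coding genes only, 61.4% with library sizes alone and 34.5% with GC and length correction, and against KO#1 35.4%, 60.1% with library sizes alone and 35.6% and 28.8% with the 2 corrections. Over time library sizes alone called 44.7%, 44.1% and 17.5% in wt cells, KO#1 and KO#2, against 50.7%, 40.8% and 26.0%. Library sizes alone moved the median of all genes from 0.20 to 1.24 and from 0.14 to 1.21 in these last 2 comparisons, and to -0.58 and -0.78 in the time comparisons of wt cells and KO#1. The replicate block over all 18 libraries gave 7, 6 and 1 called over time in wt cells, KO#1 and KO#2, 0 and 8 for KO#1 and KO#2 against wt cells at 0 h, 0 and 2 at 24 h, 8 and 4 between the clones, and 0 in both response differences. Of all genes it called 52.0%, 41.7% and 27.2% over time, 6.78% and 38.9% against wt cells at 0 h, and 10.1% and 38.7% at 24 h. Between the clones it called 28.2% and 36.8%, and in the response differences 0.301% and 2.69%. In the 24 h groups of wt cells and KO#1 alone the block gave 7, and 6 with GC and length correction added, against 0 without the block. The shares of all genes were 36.6%, 42.2% and 10.3% in the same order. Leaving out 1 library of the compared groups gave 3 to 6 called over time in wt cells, 2 to 5 in KO#1 and 1 to 1 in KO#2, 0 to 0 for KO#1 against wt cells at both times, 8 to 8 and 2 to 3 for KO#2 against wt cells at 0 h and 24 h, 7 to 8 and 2 to 3 between the clones, and 0 to 0 in the response differences. Signs turned as follows, for calls and for all 10 genes in 3 of the comparisons. Over time in wt cells Ctcf was -0.0471 with library sizes alone, Nipbl 0.10 and Stag1 0.0215 with GC and length correction, and Stag1 ranged from -0.33 to 0.0908 when 1 library was left out, above 0 without wt replicate 2 or 3 of 0 h. Over time in KO#1 Smc4 was -0.0469 and Wapl -0.0662 with library sizes alone. In KO#2 against wt cells at 0 h Ctcf was 0.40 with library sizes alone, Nipbl -0.0475 with GC and length correction, and Rad21 -0.27 with GC and -0.26 with GC and length correction. In KO#1 against wt cells at 24 h Smc2 ranged from -0.5584 to 0.15 when 1 library was left out, above 0 without wt replicate 1 or KO#1 replicate 3, and was 0.0138 with GC and length correction and 0.0059 with the block added. At 24 h GC and length correction put 7 of 10 genes below 0 in KO#2 against wt cells (all but Nipbl, Rad21 and Stag1) and 6 against KO#1 (Ctcf, Rad21, Stag2, Smc2, Smc4 and Stag1, the last called before and then -0.32), where 0 were below 0 before. In all, 58 of 910 values of the 10 genes turned sign under alternatives, over every comparison. Counting single genes that were called, and all 10 in wt cells over time, in KO#2 against wt cells at 0 h and in KO#1 against wt cells at 24 h, of 430 values under alternatives 349 kept direction and side of the threshold, 46 lost a call, 23 gained one and 12 turned sign, and of 300 in leave-one-out fits 263, 32, 1 and 4 did. The cause of these changes was not tested.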

Other observations

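Single genes of the cohesin lists were also called between lines. Between KO#1 and wt cells at 24 h 1 of 3 meiotic cohesin genes and 1 of 10 cohesin regulators were called, both lower, where 9.86% of all genes were called in either direction, so that the count of regulators is near the share of all genes. The first was Stag3, the meiotic relative of Stag1 and Stag2, which stood at 13.6, 16.3 and 13.1 CPM in KO#1 and at 34.3, 40.8 and 39.5 CPM in wt cells (-1.42 ± 0.35, adjusted p = 0.0120 by edgeR's test). The other was Hdac8, the deacetylase of Smc3, which stood at 1.80 to 3.17 CPM against 6.51 to 6.98 CPM (-1.41 ± 0.37, adjusted p = 0.0190). Neither gene overlapped between the groups, and both were called after correction for GC content and length, at -1.42 and -1.33. Hdac8 is X-linked, and the part of the X chromosome in its level was not tested. In KO#2-labelled libraries at 0 h Pttg1, the securin that holds separase inactive, was lower than in wt cells by -2.32 ± 0.36 on the log2 scale (adjusted p = 0.000198), and by -2.78 after the correction. Smc5 was higher by 1.55 ± 0.21 and by 0.56 after the correction, called in both, while Smc6 (1.304, then 0.42) and Pds5a (1.26, then 0.44) were called only before it. Of the 6 Smc5/6 genes 2 were called higher and 0 lower before the correction and 1 higher and 2 lower after it (Nsmce3, -1.03, and Nsmce4a, -0.61), and of the 10 cohesin regulators 3 higher and 3 lower before it and 0 and 3 after it (Pttg1, Cdca5 and Espl1). Over all genes 21.5% were called higher and 16.6% lower before it and 15.9% and 11.3% after it. These genes were picked from the lists after their values were seen.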
